A study of Homo sapiens with 12 samples.

Results

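The epithelial keratins KRT7, KRT8, KRT18, KRT19, KRT5, KRT14, KRT17, KRT23 and KRT80 were followed through 12 arrays of human proximal tubular cells. Members were the non-control probes that carry one of these 9 gene names on the array. This gave 13 probes of the 34127 in all, and 5 of the 9 genes (KRT7, KRT8, KRT18, KRT19 and KRT80) passed the filter on dim signal and were tested among 15984 genes.

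RNA from HK-2 and RPTEC/TERT1 cells was hybridized to one-color Agilent arrays, 2 arrays for each line and treatment. HK-2 is a proximal tubular line immortalized with papillomavirus genes, and RPTEC/TERT1 is one immortalized with telomerase, so each line stands for 1 origin of tubular cell. All cells were starved of serum and supplements and then exposed for 24 h to 10 ng/mL interleukin-1β (IL-1β), to 500 nM empagliflozin (Empa, an inhibitor of the glucose transporter SGLT2), or to neither (control). There were 4 slides with 1 array per treatment of a single line on each, named here HK-2 1, HK-2 2, RPTEC/TERT1 1 and RPTEC/TERT1 2. The comparison asked how each treatment moved the keratins against the control array of the same slide.

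Keratins are the intermediate filament proteins of epithelia, and a filament needs 1 acidic type I keratin (KRT14, KRT17, KRT18, KRT19, KRT23) and 1 basic type II keratin (KRT5, KRT7, KRT8, KRT80). KRT8 and KRT18 are the common pair of simple epithelia and the main keratins of tubular cells, while KRT7 and KRT19 are typical of ducts and of tubular cells in culture. KRT5 and KRT14 form the pair of the basal layer of stratified epithelia, and KRT17 is known for its induction in injured epidermis.

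Of the 13 probes, 7 are printed here, 4 of the KRT8 and KRT18 probes that are set against each other below and 3 that gave no signal well above background, because the results turn on what each can detect; all come from the array files, 5′ to 3′, on genome build hg19. KRT8 had a probe near the end of its mRNA (chr12:53291026-53291085, minus strand), a second whose 60 bases span 535 bases of genome (chr12:53294461-53294995, minus strand) and hence cross an intron, and another, upstream, for a noncoding KRT8 transcript (chr12:53343241-53343300, minus strand). KRT18 had a probe that also crosses an intron, spanning 439 bases (chr12:53346116-53346554, plus strand), and a second within a single stretch (chr12:53345577-53345636, plus strand). This upstream KRT8 probe lies 48245 bases from the second one and 2276 bases before the second KRT18 probe, on the opposite strand, and the RefSeq spans of KRT8 and KRT18 overlap in GRCh38.p14.
KRT8 across an intron: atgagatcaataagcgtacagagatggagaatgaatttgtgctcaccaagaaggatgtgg
KRT8 upstream, opposite to KRT18: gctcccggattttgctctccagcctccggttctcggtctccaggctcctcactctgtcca
KRT18 across an intron: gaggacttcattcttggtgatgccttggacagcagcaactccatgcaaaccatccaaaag
KRT18 second: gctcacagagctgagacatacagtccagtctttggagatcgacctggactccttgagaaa
The second KRT23 probe (chr17:39081720-39081779) and the probes of KRT14 (chr17:39740013-39740072) and KRT17 (chr17:39776976-39777035), all on the minus strand, gave no signal well above background on any array.
KRT23 second: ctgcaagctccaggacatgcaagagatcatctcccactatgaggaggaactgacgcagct
KRT14: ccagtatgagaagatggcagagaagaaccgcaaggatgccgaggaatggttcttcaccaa
KRT17: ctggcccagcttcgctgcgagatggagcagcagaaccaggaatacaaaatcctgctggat
The longest run of bases shared by any pair of the 13 probes was 9. RefSeq lists 52 pseudogenes named after KRT8, 68 after KRT18, 5 after KRT19 and 8 after KRT17, and whether transcripts of such copies add to a probe's signal was not tested.

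Values are log2 signal over the 75th percentile of all non-control spots of the same array, so 0 is the level of a fairly bright spot, and a probe is called detected where the scanner software marked it well above background. Probes differ in how well they bind, so levels are compared only within a probe. That percentile was between 298 and 467 signal units on 10 arrays but 765 and 723 units on the IL-1β and Empa arrays of slide HK-2 2, whose control had 358. The line labels stood apart from the data. Over 15324 probes detected on all arrays, the arrays of slide HK-2 1 correlated with those of RPTEC/TERT1 2, and those of HK-2 2 with RPTEC/TERT1 1, at r = 0.96 to 0.984 within a treatment, whereas arrays of the same label reached 0.852 to 0.88, and a second label field names HK-2 for all 12. Lines are therefore written as labelled. The fits of the treatments below use the slides and not the line names, but the filter on dim signal used groups of 1 labelled line and treatment. Which genes were tested thus depends on the labels. Without that filter 0 of 9 keratins passed with IL-1β and 0 of 9 with Empa. Of 10 proximal tubule markers 6 were detected on all arrays, including megalin (LRP2) and SGLT2 itself (SLC5A2), as were the epithelial genes EPCAM and MUC1, whereas 0 of 7 fibroblast, 0 of 7 distal tubule and collecting duct and 0 of 4 urothelium markers were; 3 of 5 podocyte, 1 of 5 endothelium and 2 of 5 leukocyte markers were detected throughout. Fewer markers were missing from every array: 1 of 10 proximal tubule, 2 of 7 fibroblast, 5 of 7 distal tubule and collecting duct and 2 of 4 urothelium markers. The same held for 0 of 4 epithelium, 1 of 5 podocyte, 2 of 5 endothelium and 0 of 5 leukocyte markers.

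In untreated cells KRT7, KRT8, KRT18 and KRT80 were detected on every slide. The brighter KRT8 mRNA probe gave control levels of 3.33 on HK-2 1, 2.70 on HK-2 2, 2.43 on RPTEC/TERT1 1 and 3.09 on RPTEC/TERT1 2. The brighter probe of its partner KRT18 gave 4.61, 4.16, 3.90 and 4.76 in the same order. Both were higher on HK-2 1 and RPTEC/TERT1 2 than on the other slides, so that the labelled lines overlapped. The second KRT18 probe followed this split (2.17, 1.79, 1.56 and 2.01), but the KRT8 probe across an intron did not (-0.85, -2.41, -1.65 and -2.04). KRT7 followed the split of the brighter probes with 5.55, 4.46, 3.74 and 4.79. KRT80, a type II keratin found at desmosomes and cell margins, ran the other way, with 0.67 and 0.54 on HK-2 1 and RPTEC/TERT1 2 against 1.99 and 2.27 on HK-2 2 and RPTEC/TERT1 1. KRT19, the smallest keratin, had control levels of 6.49 on HK-2 2, 6.33 on RPTEC/TERT1 1 and 6.31 on RPTEC/TERT1 2, and 5.96 on HK-2 1, where the software marked the spot as an outlier. The control levels of KRT7 and KRT80 ranged over 1.81 and 1.73 on the log2 scale, more than for 79% and 77.1% of the genes tested. KRT8 (0.89) and KRT18 (0.86) ranged less than the median gene (1.06). These ranges are of the brightest probe of each gene. The KRT8 probe across an intron ran from -2.41 to -0.85 in control, a wider range than that of the median gene.

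KRT23 was the one member near the limit of detection. Its brighter probe (chr17:39078962-39079021, minus strand) gave control signals of 16.4 units on HK-2 1, 10.5 on RPTEC/TERT1 2, 5.62 on RPTEC/TERT1 1 and 2.49 on HK-2 2, and it was detected only on the first of these. KRT5 (chr12:52908622-52908681, minus strand), KRT14 and KRT17 were not well above background on any of the 12 arrays; their highest signals were 2.62, 0.598 and 4.88 units. Of 46 other keratins on the array, 8 were detected on all arrays and 21 on none.

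**Figure D1:**
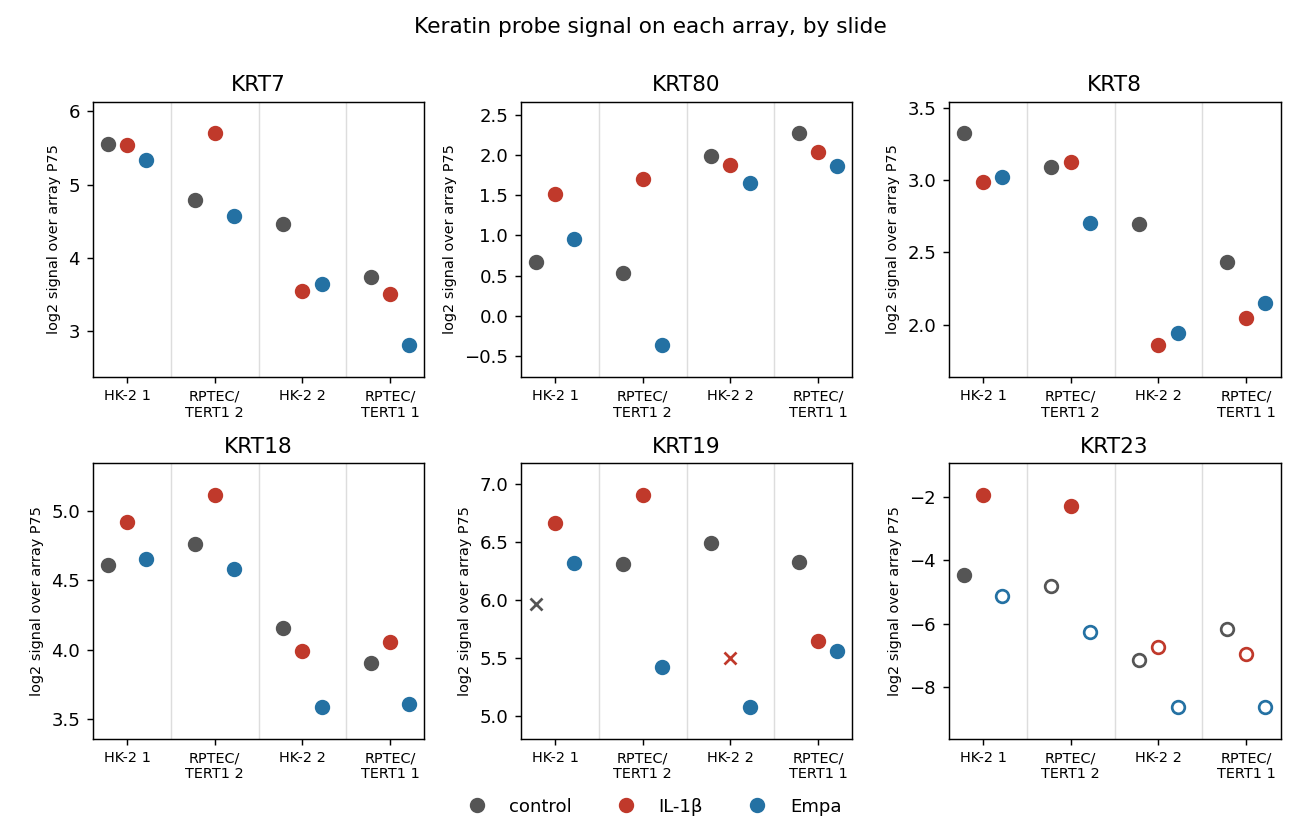
Each panel plots the log2 signal over the array's 75th percentile (y axis) of the brightest probe of one keratin on the 12 arrays, grouped by slide (x axis), in gray for control, red for IL-1β and blue for Empa. Filled points were well above background, open points were not, and crosses are outlier spots left out of the tests; KRT80 in control is lower on HK-2 1 (0.67) and RPTEC/TERT1 2 (0.54) than on the other slides, and KRT23 is detected on 3 arrays.

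No keratin passed the test between the labelled lines in control cells. RPTEC/TERT1 minus HK-2 was -0.74 for KRT7 (SE 1.05), 0.07 for KRT80 (SE 0.84), -0.25 for KRT8 (SE 0.61), -0.05 for KRT18 (SE 0.62) and -0.17 for KRT19 (SE 0.73), each with a limma adjusted p = 1 and 0 of the 5 at an unadjusted p under 0.05. By limma 0 of 15981 genes passed in this contrast, and 172 had an unadjusted p under 0.05. The 95% intervals were wide, from -3.16 to 1.68 for KRT7 and from -1.64 to 1.14 for KRT8, so line differences of this size were not resolved. Within each label the 2 control arrays came from slides that correlated better with a slide of the other label, and the part of this in the width of the intervals was not tested.

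IL-1β left the detected keratins without a called change. By limma with the slide as a block, 0 of the 5 tested keratins passed an adjusted p of 0.05, against 12.6% of all genes tested (2007 of 15984, of which 744 were higher and 1263 lower). An unadjusted p under 0.05 was found for 1 of the 5 keratins and for 4519 of the 15984 genes. The median log2 difference was -0.07 over the 5 keratins and -0.11 over all genes. The stimulus was seen in the same arrays, where 11 of 13 tested genes of a list of IL-1β response genes were called higher, with a list median of 5.83. Less RNA per cell and fewer cells expressing a gene cannot be told apart in these bulk samples.

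KRT8 came nearest to the threshold with IL-1β. Its level was 2.99 on HK-2 1, 2.05 on RPTEC/TERT1 1 and 1.86 on HK-2 2, below the control of the slide in each case, and 3.12 on RPTEC/TERT1 2, which matched its control within 0.03. The IL-1β and control levels overlapped across slides. On HK-2 2 the unscaled KRT8 signal rose from 2319 to 2777 units, so the sign there rests on the scaling. The fitted difference was -0.38 (SE 0.17, 95% interval -0.76 to -0.00204; unadjusted p = 0.0490, adjusted p = 0.175, limma). In the authors' own normalized table the same probe differed by -0.48 with an adjusted p of 0.0329 by limma, whereas after quantile normalization, alone and with normexp background correction, the adjusted p was 0.112 and 0.0740. That table also differs in the spots and genes it keeps, and which of these changed the call was not tested. Within the slides of the first scan day the difference was -0.36 and within those of the second -0.40. Without slide HK-2 2, where the brightness of the arrays differed most, it was -0.23 (adjusted p = 0.521).

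KRT18, the partner of KRT8, had a fitted IL-1β difference above 0. It read 4.92 on HK-2 1, 4.05 on RPTEC/TERT1 1 and 5.11 on RPTEC/TERT1 2, above the controls of those slides by 0.31, 0.15 and 0.35, and 3.99 on HK-2 2, lower by 0.17. The fit gave 0.16 (SE 0.15, adjusted p = 0.526), with 0.06 after quantile normalization and 0.000658 in the authors' table, and the difference between the pair was not tested. On HK-2 2 the unscaled KRT18 signal went from 6389 to 12184 units, so the sign there rests on the scaling to the array's 75th percentile, which rose from 358 to 765 units.

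KRT7 and KRT19 lay above control on some slides and below it on others. KRT7 with IL-1β was 5.53 on HK-2 1, 3.55 on HK-2 2, 3.50 on RPTEC/TERT1 1 and 5.70 on RPTEC/TERT1 2, which is 0.91 below control on HK-2 2 and 0.91 above it on RPTEC/TERT1 2. The fitted difference of -0.07 (SE 0.26, 95% interval -0.66 to 0.53, adjusted p = 0.897) averages these. On HK-2 2 the unscaled KRT7 signal rose from 7896 to 8963 units, so the sign there rests on the scaling. KRT19 lacked a usable control spot on HK-2 1 and a usable IL-1β spot on HK-2 2 and was fitted on 10 arrays; it read 6.66 on HK-2 1, 5.65 on RPTEC/TERT1 1 and 6.90 on RPTEC/TERT1 2, which was 0.68 lower and 0.59 higher than the controls of the last pair of slides. The fit gave -0.25 (SE 0.35, 95% interval -1.07 to 0.57, adjusted p = 0.688). The KRT19 signal reached 46495 units, and no keratin probe was marked as saturated on any array.

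KRT80 and KRT23 had their largest IL-1β differences on the same pair of slides. KRT80 read 1.51 against 0.67 in control on HK-2 1 and 1.70 against 0.54 on RPTEC/TERT1 2, and 1.88 and 2.03 on HK-2 2 and RPTEC/TERT1 1, which were 0.11 and 0.23 below their controls. After IL-1β its 4 levels therefore lay within 1.51 and 2.03, where the controls ran from 0.54 to 2.27. On HK-2 2 the unscaled KRT80 signal rose from 1420 to 2814 units, so the sign there rests on the scaling. The fit over the 4 slides gave 0.41 (SE 0.31, 95% interval -0.29 to 1.11, adjusted p = 0.423), and 1 array carried much of it, since the KRT80 difference was 0.07 without the IL-1β array of RPTEC/TERT1 2 and 0.16 without that whole slide.

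KRT23 signal with IL-1β was 113.9 units on HK-2 1, 80.3 on RPTEC/TERT1 2, 7.24 on HK-2 2 and 3.38 on RPTEC/TERT1 1. On HK-2 1, where both arrays detected it, this was 5.70-fold above control, and on RPTEC/TERT1 2, where the control was not well above background, at least 5.86-fold (against the higher of the control's own signal and the lowest detected signal on that array). On the remaining slides neither array detected KRT23. The second KRT23 probe gave 14.9 units against 1.38 in control on HK-2 1 and 5.49 against 1.97 on RPTEC/TERT1 2, without reaching detection. KRT23 missed the filter because no group of 1 labelled line and treatment had both arrays detected. Its detected IL-1β arrays came from HK-2 1 and RPTEC/TERT1 2, which carry different labels. With every probe admitted the KRT23 difference was 1.18 (SE 0.57, adjusted p = 0.304, limma over all probes), so the higher signals on these slides are a description of 2 pairs of arrays.

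**Figure D2:**
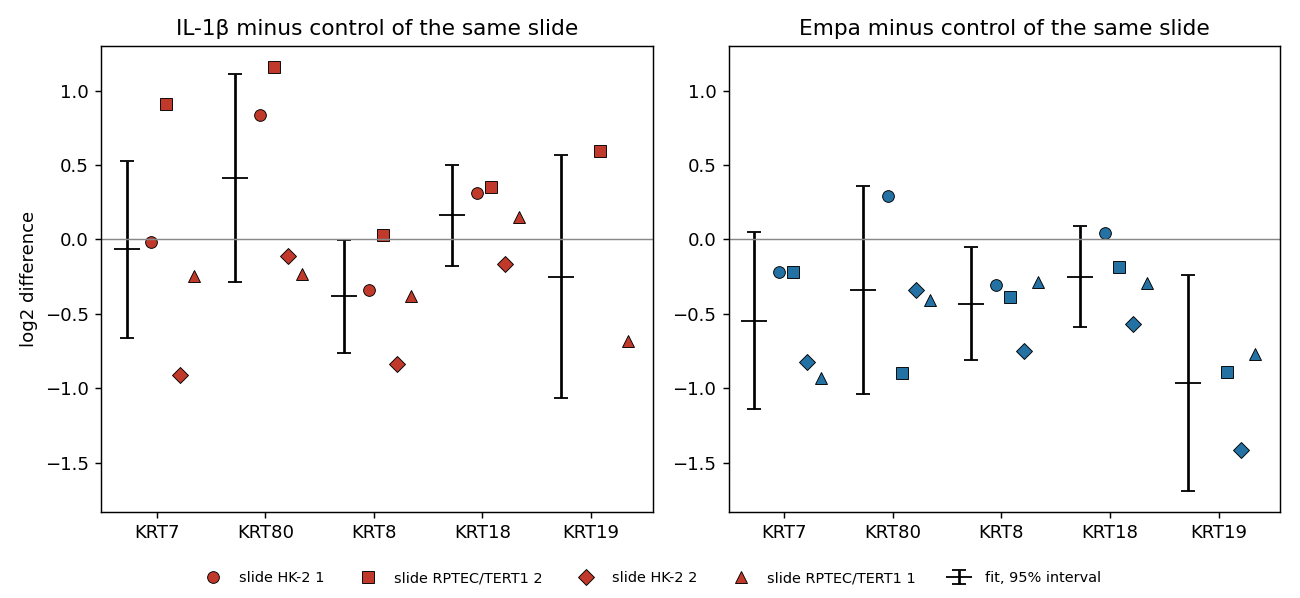
The left panel plots IL-1β and the right panel Empa, each as the log2 difference from the control array of the same slide (y axis) for the 5 keratins tested (x axis); symbols are slides, and black bars are the fit over slides with its 95% interval. IL-1β differences of KRT7 lie on both sides of 0 (-0.91 to 0.91), whereas with Empa all points of KRT7, KRT8 and KRT19 lie below 0.

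With Empa every tested keratin had a fitted difference below 0, and again none passed. By limma with the slide block 0 of the 5 keratins were called (2 had an unadjusted p under 0.05), against 0.00626% of all genes (1 of 15984; 1910 genes had an unadjusted p under 0.05). The median was -0.43 over the 5 keratins and -0.02 over all genes, of which 52.5% were below 0. The 5 keratins were measured on the same arrays, so their directions are not independent of each other.

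KRT19 had the largest difference. Its Empa level was 6.32 on HK-2 1, 5.08 on HK-2 2, 5.56 on RPTEC/TERT1 1 and 5.42 on RPTEC/TERT1 2, and on the 3 slides with a usable control it was lower by 1.41 (HK-2 2), 0.77 (RPTEC/TERT1 1) and 0.89 (RPTEC/TERT1 2). The fit on 10 arrays gave -0.96 (SE 0.31, 95% interval -1.69 to -0.24; unadjusted p = 0.0162, adjusted p = 0.344, limma). With the outlier spot of HK-2 1 kept, that slide went the other way by 0.36 and the fitted difference was -0.68, and in the authors' table it was -0.53. Within scan days the KRT19 difference was -0.83 and -1.15.

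KRT8 and KRT7 were lower with Empa on all 4 slides, as were 13.8% of genes. KRT8 read 3.02 on HK-2 1, 1.94 on HK-2 2, 2.15 on RPTEC/TERT1 1 and 2.70 on RPTEC/TERT1 2, between 0.28 and 0.75 below the controls. The fit gave -0.43 (SE 0.17, 95% interval -0.81 to -0.05; unadjusted p = 0.0297, adjusted p = 0.375, limma). KRT7 read 5.33, 3.64, 2.81 and 4.57 in the same order, lower by 0.22 on HK-2 1 and RPTEC/TERT1 2 and by 0.82 and 0.93 on HK-2 2 and RPTEC/TERT1 1, with a fit of -0.55 (SE 0.26, adjusted p = 0.438). Within the first and second scan day the differences were -0.29 and -0.57 for KRT8 and -0.57 and -0.52 for KRT7, and the Empa and control levels of both genes overlapped across slides. The unscaled signals of KRT7 went from 8247 to 11126 units on RPTEC/TERT1 2 and from 7896 to 9031 on HK-2 2, and those of KRT8 from 2541 to 3040 and from 2319 to 2783, so the sign on these slides rests on the scaling. The 75th percentile of their Empa arrays was 467 and 723 units, against 298 and 358 in control.

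KRT18 and KRT80 were lower with Empa on 3 of 4 slides. KRT18 read 4.65 on HK-2 1, 3.59 on HK-2 2, 3.61 on RPTEC/TERT1 1 and 4.58 on RPTEC/TERT1 2 (fit -0.25, SE 0.15, adjusted p = 0.513). KRT80 read 0.96, 1.65, 1.86 and -0.36 in that order (fit -0.34, SE 0.31, adjusted p = 0.653), and both were higher than control on HK-2 1 alone, by 0.05 and 0.29. Before scaling, KRT18 rose on RPTEC/TERT1 2 (8086 to 11170 units) and HK-2 2 (6389 to 8697) and fell on HK-2 1 (8754 to 8013). Unscaled KRT80 rose on HK-2 2 (1420 to 2267 units), so these signs rest on the scaling. Without the Empa array of RPTEC/TERT1 2 the KRT80 difference was -0.03. KRT23 was not detected on any Empa array; against its detected control on HK-2 1 it was at least 1.61-fold lower. On slide HK-2 2, whose Empa array was the brighter one, all 5 tested keratins were lower, and without that slide the fitted differences were between -0.76 (KRT19) and -0.14 (KRT18), all still below 0.

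The treatment effects on the keratins were not shown to differ between the labelled lines. The IL-1β effect in RPTEC/TERT1 minus that in HK-2 was 0.80 for KRT7 (SE 0.50), 1.02 for KRT19 (SE 0.95) and 0.41 for KRT8 (SE 0.37), and the Empa counterpart was largest in size for KRT80 at -0.63 (SE 0.65); the limma adjusted p of each of the 5 keratins was 1 for IL-1β and 1.00 for Empa. Over all genes 0 passed for IL-1β and 0 for Empa by limma, with 279 and 154 at an unadjusted p under 0.05. Each label held 1 slide of each correlated pair, so a difference that follows the pairs enters the error of this contrast. The contrast therefore cannot show such a difference. For KRT80 the IL-1β difference was 0.84 on HK-2 1 and 1.16 on RPTEC/TERT1 2. It was -0.11 on HK-2 2 and -0.23 on RPTEC/TERT1 1, while the contrast of the labels was 0.10 (SE 0.65).

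Probes listed under 1 gene name were in part at odds. The upstream KRT8 probe is for a noncoding transcript and lies opposite to KRT18, so it is not read here as KRT8 mRNA. With IL-1β the KRT8 probe across an intron was lower on all 4 slides (-0.83 to -0.30), as was the upstream noncoding probe (-1.12 to -0.07), beside 24.9% of genes. Before scaling, the probe across an intron rose on HK-2 2 (67.4 to 80.9 units) and RPTEC/TERT1 2 (72.2 to 76.3). The upstream probe rose on RPTEC/TERT1 2 (517 to 642 units), so these signs rest on the scaling. With Empa the probe across an intron was again lower on all 4 (-1.78 to -0.38), but the upstream probe was higher on 3 of 4, by 0.19 on HK-2 1, 0.03 on RPTEC/TERT1 1 and 0.14 on RPTEC/TERT1 2, and its fitted difference was -0.02 (SE 0.16). Before scaling, the probe across an intron rose on HK-2 2 (67.4 to 104.8 units). The upstream probe rose on HK-2 2 (617 to 909 units) and fell on RPTEC/TERT1 1 (451 to 368), so these signs too rest on the scaling. The KRT18 probes moved alike with IL-1β, higher on the same 3 slides, with fits of 0.16 (SE 0.10) and 0.28 (SE 0.22) among all probes. With Empa they parted on HK-2 1, where the brighter was 0.05 above control and the second 1.09 below it. The KRT8 probe across an intron had its largest difference on that same array pair, with 199.1 units in control and 51.4 with Empa.

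**Figure D3:**
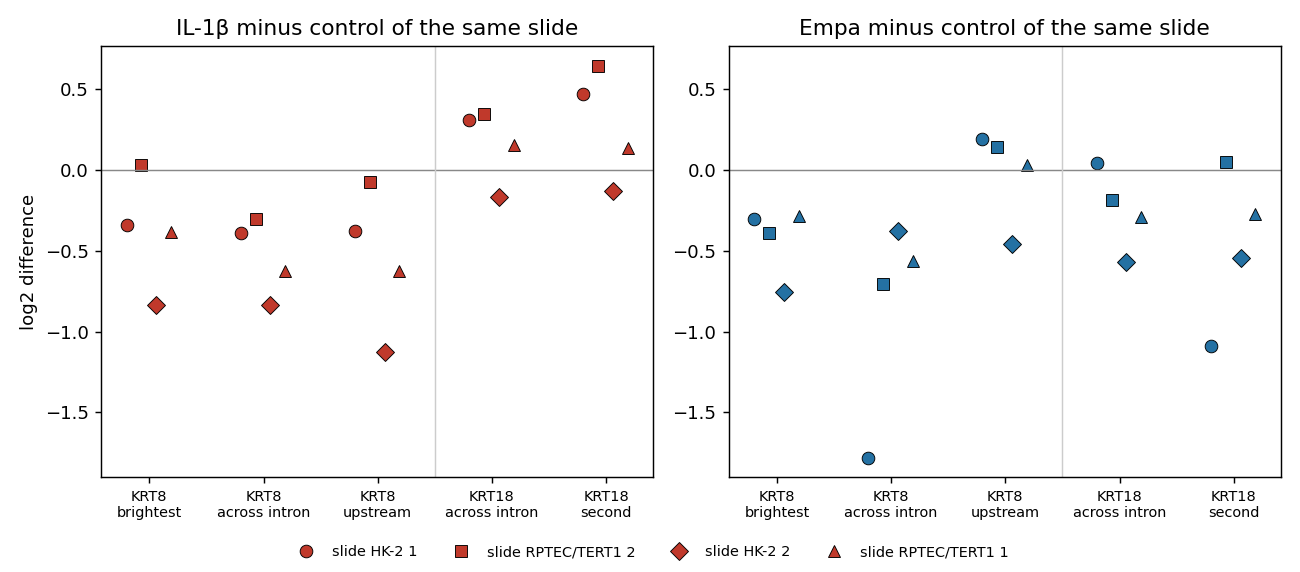
Log2 differences from the control array of the same slide (y axis) are plotted for 3 probes of KRT8 and 2 of KRT18 (x axis), with IL-1β on the left in red and Empa on the right in blue; symbols are slides. With Empa the upstream KRT8 probe is above 0 on 3 slides while the other KRT8 probes are below 0 on all 4, and on HK-2 1 the second KRT18 probe lies at -1.09 against 0.05 for the first.

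Across the 12 arrays the brightest probes of KRT7, KRT8 and KRT18 varied together. Pearson r was 0.91 for KRT7 with KRT8, 0.92 for KRT7 with KRT18 and 0.86 for KRT8 with KRT18. KRT80 was opposed to each (r = -0.46, -0.52 and -0.50). After each slide's mean was removed the pairs with KRT80 turned positive, to 0.71 with KRT7, 0.34 with KRT8 and 0.76 with KRT18, so the opposition lay between slides and not between treatments on a slide. These are descriptions over 12 arrays that share slides and scaling. The gene most like each keratin over the 12 arrays, among 15578 others, was KDM8, a jumonji-domain enzyme, for KRT7 (r = 0.98), SP6, a zinc-finger transcription factor of epithelia, for KRT80 (r = 0.96), BCKDHA, a subunit of branched-chain keto acid dehydrogenase, for KRT8 (r = 0.98), and PTPLA, an enzyme of fatty acid elongation, for KRT18 (r = 0.98).

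Among partners of the keratin network, genes that link filaments to junctions were called lower with IL-1β in 4 of 12 tested members and called higher in 0 (list median -0.47). Of all genes 12.6% were called in either direction, and 1263 of 15984 were called lower. The direction was not shared by all, since JUP was higher on 4 of 4 slides but not called (0.57, SE 0.16, adjusted p = 0.0523, limma). DSG2, PKP4 and DST also had fitted differences above 0. The genes called lower were PPL (-1.86, SE 0.28, adjusted p = 0.00432, limma), a plakin that binds keratins and was detected on 4 control but 2 IL-1β arrays, the desmosomal plakophilins PKP2 (-1.23, SE 0.31) and PKP3 (-0.88, SE 0.24), and FAM83H (-0.79, SE 0.20), which organizes keratin filaments; each was lower on 4 of 4 slides. Of 16 tested other keratins 0 were called with IL-1β by limma (median -0.08; 1 at an unadjusted p under 0.05), and of 6 squamous differentiation genes likewise 0 (median -0.21; 1 at an unadjusted p under 0.05).

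Of 13 tested regulators of epithelial keratin genes 3 were called, beside 12.6% of all genes: IL-1β raised ZEB2 (3.30, SE 0.71) and ZEB1 (1.37, SE 0.20), repressors of epithelial genes, and lowered OVOL2 (-1.86, SE 0.28), a repressor of ZEB1, each in the same direction on 4 of 4 slides. ZEB2 was detected on 2 control and 4 IL-1β arrays. Of 13 tested other intermediate filament genes 3 were called as well: the neurofilament gene NEFL (-2.07, SE 0.30) and the lens filament gene BFSP1 (-2.24, SE 0.24) fell and the lamin LMNB2 (0.71, SE 0.18) rose. Of the epithelial markers 2 of 3 tested and of the proximal tubule markers 3 of 7 tested were called lower and 0 higher, beside 1263 of 15984 genes called lower. These were the epithelial genes EPCAM (-0.98, SE 0.21) and MUC1 (-1.21, SE 0.25) and the proximal tubule genes LRP2 (-2.44, SE 0.16), SLC3A1 (-3.08, SE 0.64), part of the cystine transporter, and SLC34A1 (-1.26, SE 0.20; detected on 4 of 12 arrays), a phosphate transporter, while the remaining 5 had differences between -0.66 and 0.0086. With Empa limma called 0 genes in each of these lists, and between 1 (squamous differentiation genes) and 5 (linkers) of a list had an unadjusted p under 0.05. Every one of these IL-1β calls was lost in the fit without the replicate block, in which 9 genes passed in all.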

How the data were processed

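Gene expression was measured on 12 one-color arrays (4x44K human design). The deposited scanner files hold, per the file headers, intensity values made by the authors with Agilent Feature Extraction 9.5.3.1 (the processed signal, after spatial detrending) and flags for background, saturation and outliers. The authors' deposited table holds normalized log2 values for the same arrays; its columns correlated best with their own array in 12 of 12 cases, its column medians were 8.29 on slide HK-2 1 and 6.53 to 6.89 elsewhere, and its centring is not given in the sources used here. Control and outlier spots were left out, spots of a probe averaged, and signals divided by the array's 75th percentile, with a floor of 1 unit, before log2. For each gene the probe of highest mean signal was used, of the probes that had values on at least 9 arrays and were flagged above background in both replicates of 1 or more groups. Treatments were tested with limma 3.58.1 (R 4.3.3) in a model with the slide as a block and Benjamini-Hochberg adjustment at 0.05; labelled lines and line-by-treatment differences were tested in fits with 6 groups. The pairing by slide comes from the titles and the files, and deviations of arrays on a slide correlated at r = 0.592 to 0.906 in all 12 pairs. Named genes were the members with all their probes, the 1 gene most correlated with each member detected on all arrays, and up to 4 called genes with the largest difference in each list and treatment, of the lists on which the text gives called genes; of the IL-1β response list only counts are given. The linkers JUP, DSG2, PKP4 and DST are named though not called, because they went against the direction of the calls in their list. Members and lists were chosen with earlier results of these data known. Replicates are biological duplicates per the methods. The fit was tested on simulated data. Alternatives were other normalizations, filters, floors and models, and leaving out arrays or slides. Genome coordinates are those of the array files (hg19). Precision is limited by the number of arrays.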

Additional observations from a re-analysis of the deposited data

How the results depend on the processing

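Of 30 alternatives, 29 left 0 keratins past the threshold with IL-1β and 30 left 0 with Empa; the exception was the authors' table, in which 1 keratin, KRT8, passed with IL-1β (-0.4758, adjusted p = 0.0329; range of its adjusted p over the alternatives 0.0329 to 1.00). Comparisons of the labelled lines gave 0 keratins under each alternative run. All fitted Empa differences of the 5 keratins stayed below 0, and the IL-1β differences of KRT80, KRT8 and KRT18 kept their sign, though not their size: KRT18 with IL-1β was 0.000658 in the authors' table, and KRT80 without the IL-1β or Empa array of RPTEC/TERT1 2 was 0.0715 with IL-1β and -0.0292 with Empa. The sign of KRT7 with IL-1β turned without 1 of several arrays: its differences ran from -0.391 to 0.216 when arrays or slides were left out, with 0.0273 without RPTEC/TERT1 control 1, 0.121 without HK-2 control 2, 0.171 without HK-2 IL-1β 2 and 0.216 without slide HK-2 2. KRT19 with IL-1β turned to 0.0623 without the replicate block, 0.0265 in the methods' t-test (unpaired, given by the study for its PCR and ELISA data and not for the arrays), 0.461 on the slides of the second scan day alone, 0.0866 without RPTEC/TERT1 IL-1β 1 and 0.0380 without slide RPTEC/TERT1 1, with a range of -0.811 to 0.461 over all alternatives. The cause was not tested.

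Counts over all genes moved more. With IL-1β, 2007 genes passed with the block, 9 with no replicate block, 902 with the replicate block and 6 groups, 47 in the methods' t-test, and 0 on the slides of either scan day alone, where 6 arrays remain; leaving out arrays or slides gave 471 (without slide RPTEC/TERT1 2) to 3037 (without HK-2 Empa 1). With Empa, 1 gene passed, 2 in the methods' t-test, and 0 with no replicate block, with 6 groups, after normexp, in the authors' table, without the filter on dim probes, with detection on all 12 arrays, with a floor of 5 units and on either scan day; leaving out arrays or slides gave 0 to 1. Leaving out whole slides, and asking for values on all 12 arrays, were alternatives chosen after seeing the data. With 2 arrays a group and signals near background for KRT23, KRT5, KRT14 and KRT17, smaller differences could not be resolved.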
